A study of Mus musculus with 48 samples.

Results

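The respiratory chain of the inner mitochondrial membrane moves electrons from NADH (complex I) and succinate (complex II) through complex III to oxygen at complex IV, and complex V, the ATP synthase, uses the resulting proton gradient to make ATP. Most subunits are encoded in the nucleus. Complex IV has tissue isoforms of several subunits, among them Cox4i2, known for its expression in lung, and Cox6a2, Cox7a1 and Cox8b, the forms of heart and skeletal muscle. Here the probes for these subunits were followed in whole mouse lung on the Illumina MouseRef-8 v1.1 beadchip. The members were all probes whose annotated symbol began with Nduf, Sdha to Sdhd, Uqcr, Cox4 to Cox8 or Atp5, and that 4 or more of the 24 arrays of a time point detected, with a detection p below 0.01. The symbols alone gave 98 probes, for 83 genes, of the 24613 probes and 15967 named genes of the array, and 82 of them, for 74 genes, met the detection condition at both time points. These were 33 probes of complex I, 3 of complex II, 5 of complex III, 18 of complex IV (Ndufa4 was counted there), 14 of complex V and 9 of assembly factors that carry Nduf or Sdh names. The other 16 probes were detected in 0 of 24 arrays at either time point and were not tested. They included the sole probes for Ndufab1, Ndufs1, Sdha, Uqcrfs1, Uqcrq, Cox7b2, Cox8c, Ndufaf6 and Sdhaf1, so complex II was represented by Sdhb, Sdhc and Sdhd. Of the 82, 81 were detected in all 24 arrays at 4 weeks and 82 at 16 weeks, and the exception, a Ndufv3 probe, was detected in 19 arrays at 4 weeks.

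The study compared the lung response to welding fume in A/J mice, a strain susceptible to lung tumors, and C57BL/6J (B6) mice, a resistant strain. Male mice, obtained at 4 weeks of age, aspirated gas metal arc mild steel fume (GMA-MS, mainly iron and manganese), gas metal arc stainless steel fume (GMA-SS, which also holds chromium and nickel) or phosphate buffered saline (sham). There were 4 exposures, of about 5 mg/kg fume each, and lungs were taken 4 or 16 weeks after the last. All 12 groups of strain, exposure and time held 4 arrays, 48 in all, and every beadchip held 1 array of each of the 6 groups of its time point. A group held the same position on each of its beadchips, so position cannot be told apart from strain or exposure. Between 9990 and 11567 probes were detected per array. The lung marker list (alveolar, club and endothelial genes) averaged 13.94 to 14.12 in every array at 4 weeks, on the log2 scale used throughout: background-corrected bead intensity, quantile normalized within a time point. Whole lung holds many cell types, and in such samples fewer cells of a type and less RNA per cell cannot be told apart. Each result is a difference in log2 signal of 1 probe. Signal of different probes cannot be set against each other. A probe was called at an adjusted p under 0.05 (limma, Benjamini-Hochberg over all 11624 probes tested at 4 weeks or 11881 at 16 weeks).

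Many nuclear genes of the chain are known targets of NRF1, of ETS factors such as GABPA, and of YY1. The stretches of 250 bases before the gene start (RefSeq, GRCm38.p6, 5′ to 3′ on the strand of the gene) are shown for 4 members: Cox6a1 and Cox7a1, a ubiquitous and a muscle subunit of complex IV, which the results set apart; Sdhd of complex II, as an example with both NRF1 and ETS letters; and Ndufb10, the member with the largest strain difference. Capitals mark matches, on either strand, to GCGCA and GCGC with any single base between them (NRF1), CCGGAAG (ETS), AANATGGC (YY1) or CCAAT.
Cox6a1 (chr5:115348959-115349208): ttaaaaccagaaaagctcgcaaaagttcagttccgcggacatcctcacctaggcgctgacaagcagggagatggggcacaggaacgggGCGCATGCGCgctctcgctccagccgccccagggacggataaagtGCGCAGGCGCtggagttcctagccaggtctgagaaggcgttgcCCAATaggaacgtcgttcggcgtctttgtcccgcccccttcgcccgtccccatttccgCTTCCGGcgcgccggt
Cox7a1 (chr7:30183921-30184170): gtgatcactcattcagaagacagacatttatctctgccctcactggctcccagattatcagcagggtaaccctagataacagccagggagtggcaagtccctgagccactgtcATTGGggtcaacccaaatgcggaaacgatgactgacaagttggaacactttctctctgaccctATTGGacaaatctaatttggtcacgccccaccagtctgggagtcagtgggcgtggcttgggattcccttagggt
Sdhd (chr9:50603850-50604099): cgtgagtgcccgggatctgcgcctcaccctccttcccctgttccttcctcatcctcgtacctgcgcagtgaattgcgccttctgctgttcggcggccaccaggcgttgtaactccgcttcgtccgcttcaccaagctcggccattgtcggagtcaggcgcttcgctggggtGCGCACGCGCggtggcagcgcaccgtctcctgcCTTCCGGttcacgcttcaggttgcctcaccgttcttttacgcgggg
Ndufb10 (chr17:24724424-24724673): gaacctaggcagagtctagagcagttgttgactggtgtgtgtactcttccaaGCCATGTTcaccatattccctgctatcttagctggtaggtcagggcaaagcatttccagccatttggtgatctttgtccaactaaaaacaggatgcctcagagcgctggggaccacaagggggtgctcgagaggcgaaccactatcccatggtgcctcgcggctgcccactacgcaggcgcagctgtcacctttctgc
Cox6a1 and Sdhd held NRF1 and ETS letters, Cox7a1 held CCAAT boxes alone, and Ndufb10 held a YY1 match alone. RefSeq windows of 300 bases, from 250 before to 50 after the start, were found for 63 of the 74 genes (68 windows). The NRF1 letters stood in 17 of these (25%), against 4.6% of all 32851 windows and 6.38% of those of coding genes. Of 12 complex IV windows only 1 held them, that of Cox6a1 shown above. ETS letters stood in 17 (25%, against 8.86% of all windows and 11.6% of those of coding genes). YY1 letters stood in 18 (26.5%, against 6.05% and 6.37%), 11 of them among 28 complex I windows. CCAAT boxes (38.2% against 37.4%) and TATAAA (11.8% against 13.6%) were about as frequent as elsewhere. A match of letters is a description of the window and not a measured binding site.

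Strain separated several subunits in unexposed lung. In sham mice 4 weeks after the last aspiration, Ndufb10, Cox4i2, Atp5e and Atp5g2 were lower in A/J than in B6. Cox7a1, Cox8b, Ndufa12, Sdhc, 1 Ndufs4 probe, Atp5g1, Ndufa9 and Atp5d were higher. This made 12 of 82 members called, 8 higher and 4 lower in A/J (14.6%), against 18.2% of all probes tested (8.61% higher, 9.64% lower). The share called was thus close to the background of a pair of strains that differ at many probes. The median member difference, A/J minus B6, was 0.113 against 0.028 over all probes, and 67 members (81.7%) lay above 0 against 56.5% of all probes. Both groups of arrays lay wholly apart for 11 members higher and 4 lower in A/J, against 19.4% of all probes. With the beadchip as a block, which takes out the differences between chips, 31 members were called, 26 higher and 5 lower, against 30.6% of all probes. At 16 weeks 18 of 82 sham members were called, 13 higher and 5 lower (22%, against 26.8% of all probes, 14.4% higher and 12.4% lower), with medians of 0.057 and 0.025; with scaling to the median of detected probes, which moved the median of all probes to -0.148, 3 were higher and 5 lower. The groups lay wholly apart for 14 higher and 5 lower members, against 27% of all probes. Of the 12 and 18 calls, which share no arrays, 10 were called at both times in the same direction, 83.3% of the first list and 55.6% of the second, against 78.6% and 53.2% over all probes.

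Ndufb10, an accessory subunit of complex I, had the largest strain difference of the members. Its log2 signal in the A/J sham arrays at 4 weeks was 8.76, 8.95, 8.78 and 9.12. In the B6 sham arrays it was 12.32, 11.93, 12.25 and 12.17. No array of one strain came near the other, and the difference of -3.26 (SE 0.101, limma adjusted p = 5.03e-17) corresponds to 9.61-fold lower signal in A/J. At 16 weeks the A/J sham arrays read 8.67, 8.75, 8.25 and 8.58 and the B6 sham arrays 11.86, 11.91, 11.75 and 11.95, a difference of -3.30 (SE 0.126, adjusted p = 2.38e-15). The gap was as wide in the fume groups: over all 12 arrays of each strain, A/J spanned 8.75 to 9.12 and B6 11.93 to 12.32 at 4 weeks. Ndufb10 was read by a single probe, and a lower transcript level and a strain difference in the sequence under the probe cannot be told apart from these values, which holds for the other single probes as well.

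Other complex I members differed by less. Ndufa12, an accessory subunit of the arm that oxidizes NADH, read 12.34, 12.46, 12.37 and 12.36 in A/J sham lungs at 4 weeks and 11.73, 11.87, 11.75 and 11.72 in B6 sham lungs. The groups did not overlap, and the difference was 0.62 (SE 0.086, limma adjusted p = 8.46e-06), with 0.42 (SE 0.093, adjusted p = 0.00157) at 16 weeks. Ndufs4, whose loss causes Leigh syndrome in humans, was read by 3 probes that passed detection. The first was higher in A/J sham lungs by 0.37 (SE 0.086, adjusted p = 0.00321) at 4 weeks and by 0.35 (SE 0.04, adjusted p = 5.2e-07) at 16 weeks. The others were not called in sham lungs at either time without the beadchip block. Averaged over the 3 exposures, all 3 Ndufs4 probes were called higher in A/J at both times, by 0.34, 0.29 and 0.27 at 4 weeks and by 0.33, 0.24 and 0.15 at 16 weeks. Several probes of a gene did not always give the same call: of the Ndufaf5 pair, 1 probe was called over the 3 exposures at 4 weeks (0.16) and the other was not (0.09), and no probe of Ndufs3 (0.07 and 0.00, rounded, at 4 weeks), Ndufv3 or Ndufa5 was called at that time. The second Ndufaf5 probe (adjusted p = 0.02) and 1 of the Ndufa5 pair (0.18, adjusted p = 0.00043) were called with the beadchip as a block. Ndufa9 was called in sham lungs at both times, by 0.24 (adjusted p = 0.0291) and 0.13 (adjusted p = 0.0207). At 16 weeks Ndufb7 (0.26, adjusted p = 0.0431) and Ndufc1 (0.22) were also higher in A/J sham lungs.

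Complex II turned on Sdhc, a membrane anchor subunit of succinate dehydrogenase. Its A/J sham arrays read 12.92, 12.68, 13.05 and 12.92 at 4 weeks and its B6 sham arrays 12.37, 12.17, 12.38 and 12.29, without overlap. The difference was 0.59 (SE 0.101, limma adjusted p = 0.00014), and 0.50 (SE 0.056, adjusted p = 3.02e-07) at 16 weeks. Sdhb, the iron-sulfur subunit, and Sdhd, the other anchor, were not called in sham lungs. Over the 3 exposures at 4 weeks they were higher in A/J by 0.15 (adjusted p = 0.026) and 0.23 (adjusted p = 0.0329), and at 16 weeks they differed by 0.07 (adjusted p = 0.174) and 0.11 (adjusted p = 0.314, 0.0353 with the beadchip as a block). In complex III no member was called in sham lungs at 4 weeks without the block; with it Uqcrc1 was (0.21, adjusted p = 0.0157 in place of 0.0702). Uqcr11 (0.24) and Uqcrc1, a core subunit (0.16), were called higher in A/J sham lungs at 16 weeks.

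In complex IV the lung isoform Cox4i2 was lower in A/J. Its sham arrays at 4 weeks read 9.29, 10.21, 9.50 and 10.54 in A/J and 10.73, 11.47, 10.63 and 11.37 in B6. The groups just did not overlap, because arrays of beadchips 2 and 4 were higher than those of beadchips 1 and 3 in both strains. The difference was -1.17 (SE 0.343, limma adjusted p = 0.0185), 2.24-fold lower in A/J, and with the beadchip as a block its SE fell to 0.09 (adjusted p = 4.07e-09). Without the block the call was lost when A/J replicate 1 or 3 or B6 replicate 2 or 4 was left out (adjusted p up to 0.077). Within the 4 beadchips the gap over the 3 exposures was -1.26, -1.18, -1.30 and -1.16. At 16 weeks the sham arrays read 8.64, 8.56, 8.46 and 8.58 in A/J and 9.44, 9.74, 9.67 and 9.73 in B6, a difference of -1.08 (SE 0.094, adjusted p = 5.44e-09). The ubiquitous isoform Cox4i1 was not called: it differed by 0.08 (SE 0.044, adjusted p = 0.177, 0.0248 with the block) over the 3 exposures at 4 weeks and by 0.05 (SE 0.027, adjusted p = 0.107) at 16 weeks.

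Complex V held differences in both directions. Atp5e, the epsilon subunit of the F1 part, read 9.01, 9.06, 8.86 and 9.30 in A/J sham lungs at 4 weeks and 9.67, 9.66, 9.55 and 10.08 in B6, a difference of -0.68 (SE 0.117, limma adjusted p = 0.000134) with no overlap. At 16 weeks the difference was -0.59 (SE 0.151, adjusted p = 0.0048). Atp5g1 and Atp5g2 encode the same mature c subunit of the rotor, and their probes differed in opposite directions. Atp5g1 read 13.11, 12.85, 13.17 and 13.15 in A/J and 12.81, 12.75, 12.70 and 12.67 in B6 sham lungs at 4 weeks, 0.34 higher in A/J (SE 0.096, adjusted p = 0.014). Atp5g2 read 11.66, 11.38, 11.65 and 11.56 in A/J and 11.94, 11.91, 11.996 and 11.84 in B6, a difference of -0.36 (SE 0.082, adjusted p = 0.00264). The same directions were called at 16 weeks, with 0.37 (SE 0.093, adjusted p = 0.00395) for Atp5g1 and -0.33 (SE 0.066, adjusted p = 0.000604) for Atp5g2. Atp5d, the delta subunit, was 0.22 higher in A/J sham lungs at 4 weeks (adjusted p = 0.0361). Without the beadchip block it was not called over the 3 exposures at 4 weeks, nor in sham lungs at 16 weeks.

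**Figure D1:**
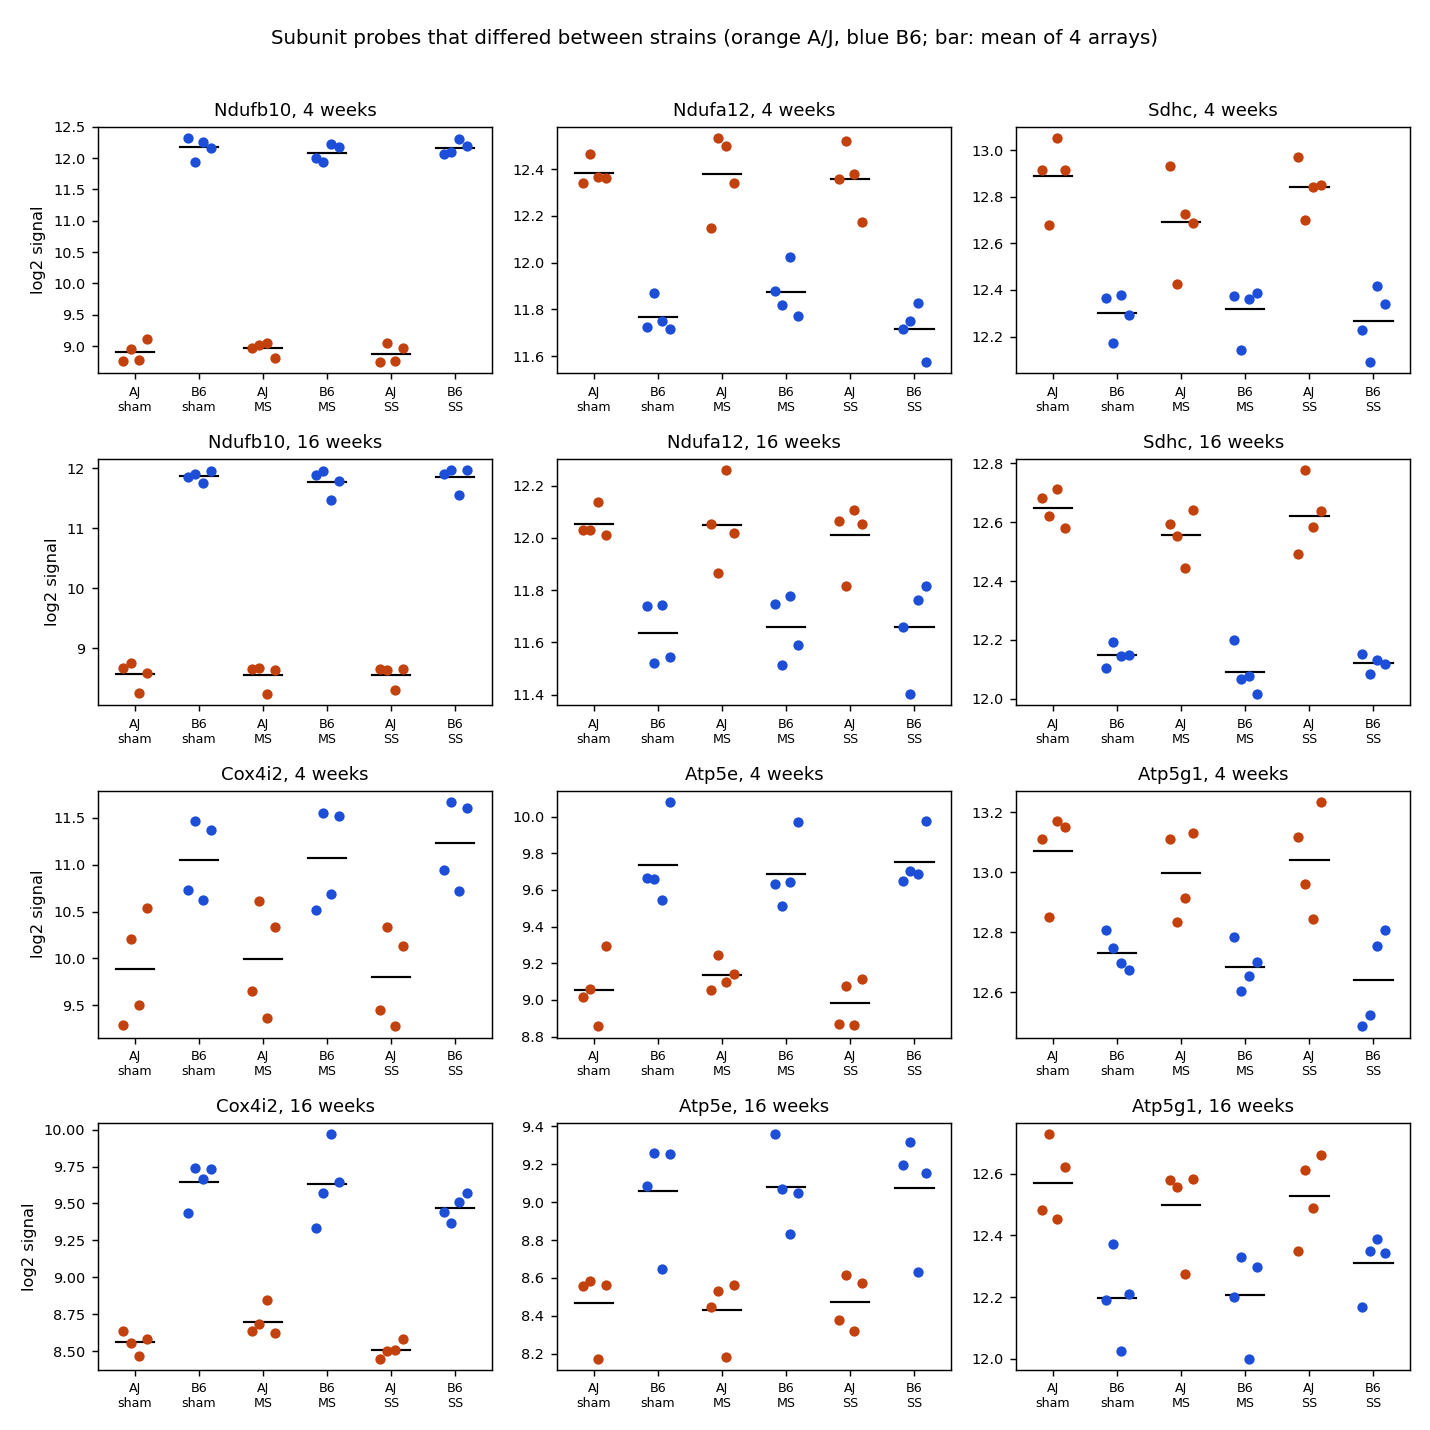
Log2 signal of 6 subunit probes (y axis) in every array by group (x axis: sham, MS for GMA-MS, SS for GMA-SS), A/J in orange and B6 in blue, with bars at the mean of 4 arrays; rows 1 and 3 are 4 weeks and rows 2 and 4 are 16 weeks. Ndufb10 spans 8.75 to 9.12 in A/J and 11.93 to 12.32 in B6 at 4 weeks, and Cox4i2 and Atp5e are lower and Ndufa12, Sdhc and Atp5g1 higher in A/J in each exposure group.

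The fits of the strain comparisons that left out 1 array were made without the beadchip block. Some of the smaller sham calls were lost in them, for several whichever of many arrays was left out. Leaving out 1 array at a time ended the 4 week call of Atp5d without B6 replicate 1, 3 or 4 or A/J replicate 3 or 4 (adjusted p up to 0.12), and that of Ndufa9 without A/J replicate 1, 3 or 4 or B6 replicate 2 or 4 (up to 0.118). At 16 weeks Ndufb7 (up to 0.152) and Ndufaf7 (up to 0.217) each lost the call in 6 of 8 such fits. Also at 16 weeks, Cox6a1 lost it without A/J replicate 2 or B6 replicate 3 or 4 (up to 0.0782), Uqcrc1 without A/J replicate 3 or 4 or B6 replicate 4 (up to 0.0712), Cox7a1 without replicate 3 of either strain (up to 0.0694), Ndufa9 without A/J replicate 2 or B6 replicate 3 (up to 0.0638), and 1 of the Cox6b1 probes without B6 replicate 1 (0.0503). Ndufb10, Atp5e, Ndufa12, Sdhc, Atp5g1, Atp5g2 and the first Ndufs4 probe kept their sham calls at both times whichever array was left out.

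Averaging the strain difference over sham, GMA-MS and GMA-SS used all 24 arrays of a time point. At 4 weeks 29 of 82 members were called (35.4%, against 37.6% of all probes), 23 higher and 6 lower in A/J, where 19.7% and 17.9% of all probes were called higher and lower. By complex, 8 of 33 complex I probes were higher and 2 lower, 3 of 3 complex II probes were higher, 2 of 5 complex III probes were higher, 6 of 18 complex IV probes were higher and 1 lower, 3 of 14 complex V probes were higher and 2 lower, and 1 of 9 assembly factors was higher and 1 lower. The medians ran from 0.05 for the assembly factors, 0.085 for complex III, 0.088 for complex I and 0.098 for complex V to 0.145 for complex IV and 0.231 for complex II, against 0.02 for all probes. The direction was thus mostly toward A/J, in small steps: 68 members (82.9%) lay above 0, against 55.1% of all probes. With the beadchip as a block 51 members were called, 44 higher and 7 lower, against 52.8% of all probes; scaled to the median of detected probes in place of quantile normalization 14 were called, 9 higher and 5 lower, against 20.4%.

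Beside the members described above, this average added calls of modest size at 4 weeks. In complex I, Ndufb4 (0.35, adjusted p = 0.0328), Ndufb5 (0.18) and Ndufc1 (0.12) were higher in A/J and Ndufa3 was lower (-0.18). Uqcr11 and Uqcrc1 of complex III were each higher by 0.15, rounded. In complex IV, Cox7b (0.32), Cox6b1 (0.20), Ndufa4 (0.16) and Cox8a (0.15) were higher. Atp5pb, a stalk subunit of complex V (0.33), and Atp5k (0.30) were higher, and of the assembly factors Ndufaf5 was higher (0.16) and Ndufaf7 lower (-0.26).

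At 16 weeks the same average gave 30 called members (36.6%, against 45.1% of all probes), 22 higher and 8 lower in A/J, where 25.9% and 19.2% of all probes were called higher and lower. With scaling to the median of detected probes the split was 12 to 11 (32.6% of all probes called) and with cyclic loess 16 to 10 (42.4%). The excess of higher calls at this time thus depended on the scaling. Scaling to the median gave a median of -0.088 for all probes and 0.009 for the members, so the members stayed above all probes. With the beadchip as a block 41 members were called, 32 higher and 9 lower, against 51.5%. Complex I had 10 higher and 2 lower, complex II 1 higher, complex III 2 higher, complex IV 7 higher and 2 lower, complex V 2 higher and 2 lower, and the assembly factors 2 lower. The medians of complexes III and V and of the assembly factors were 0.004, 0.022 and 0.005, at or under the 0.025 of all probes, and that of complex IV was 0.053. Beside Cox6a2, new among the calls were Ndufb9 (0.23), Ndufs5 (0.20), both Cox6a1 probes (0.10 and 0.12), Cox7a2 (0.15, rounded), Ndufa7 (0.09), Atp5j2 (0.09) and Ndufaf4 (-0.18), none of them called at 4 weeks without the block; with it Ndufb9 (adjusted p = 1.08e-05) and Cox7a2 (0.00736) were. Cox8a (0.21) and 1 Cox6b1 probe (0.17) were again higher in A/J, the other Cox6b1 probe (0.20) had not been called at 4 weeks (0.20, adjusted p = 0.137, 0.00101 with the block), and Ndufb7 (0.14) and Ndufaf7 (-0.23) were called as in sham lungs. Of the 29 and 30 calls 19 were shared in direction, 65.5% of the first and 63.3% of the second list (76.3% and 63.7% over all probes), and 0 were called in opposite directions.

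**Figure D2:**
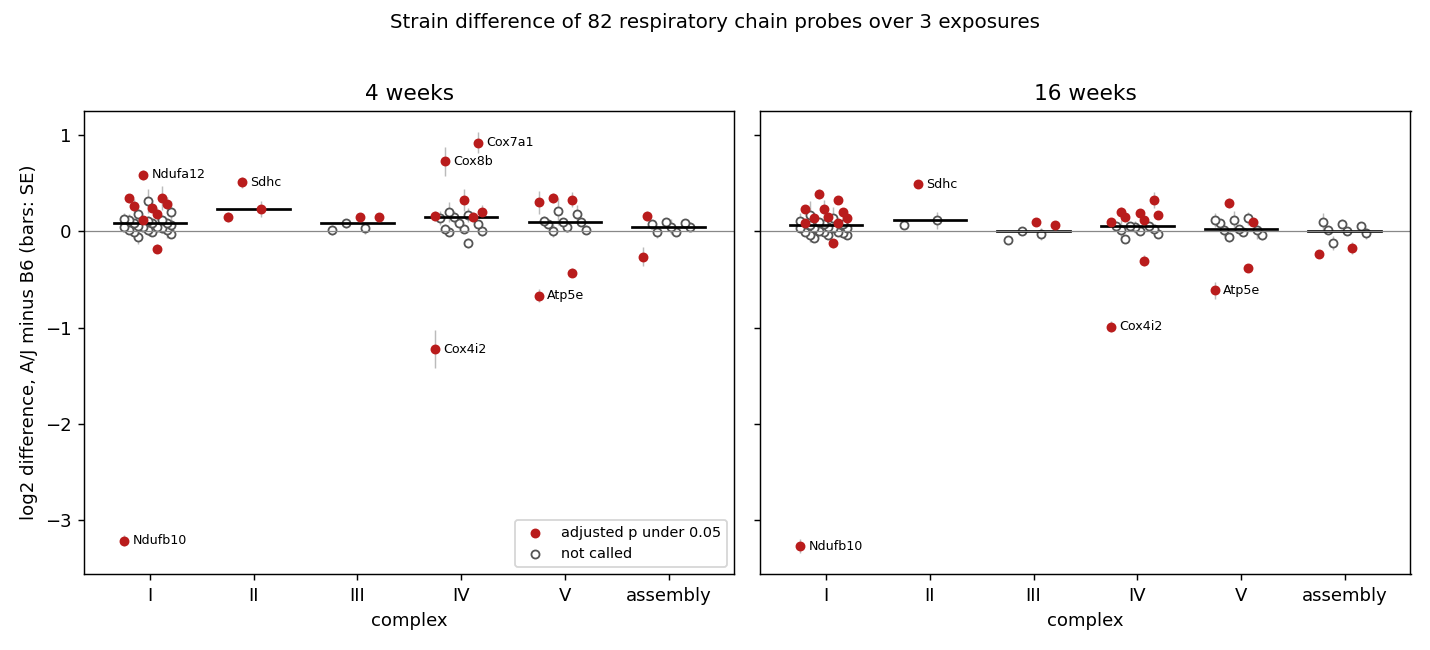
Log2 difference, A/J minus B6, averaged over the 3 exposures (y axis, with SE) for the 82 probes by complex (x axis), at 4 weeks (left) and 16 weeks (right); filled points were called and black bars are medians of a complex. Ndufb10 stands at -3.22 and -3.28, Cox4i2 at -1.23 and -0.99, Cox7a1 at 0.92 and 0.33, and Cox8b at 0.73 and 0.01.

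The strain differences of the muscle isoforms of complex IV changed between the time points. The time points were run on separate beadchips, so time and beadchip set cannot be told apart. Cox7a1 read 11.70, 11.79, 11.56 and 12.29 in A/J sham lungs at 4 weeks and 10.78, 11.25, 10.56 and 10.85 in B6, 0.98 higher in A/J without overlap (SE 0.192, limma adjusted p = 0.000621). Cox8b read 12.35, 11.99, 11.92 and 12.75 in A/J and 11.29, 11.999, 10.99 and 11.20 in B6. Here B6 replicate 2 fell among the A/J arrays, and the difference was 0.88 (SE 0.262, adjusted p = 0.0191), which was lost without B6 replicate 3 or 4 or A/J replicate 4 (adjusted p up to 0.0824). Cox6a2 did not separate the strains at 4 weeks: over the 3 exposures its difference was 0.01 (SE 0.051, adjusted p = 0.942), with 12.73 to 13.14 in A/J and 12.72 to 13.21 in B6.

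At 16 weeks Cox7a1 read 10.96, 11.07, 11.40 and 10.98 in A/J sham lungs and 10.77, 10.65, 10.48 and 10.68 in B6, and the difference was 0.46 (SE 0.139, limma adjusted p = 0.0164). Over the 3 exposures it was 0.33 (SE 0.08, adjusted p = 0.0019) at 16 weeks against 0.92 (SE 0.111, adjusted p = 4.53e-07) at 4 weeks. Cox8b went from 0.73 (SE 0.151, adjusted p = 0.000504) to 0.01 (SE 0.105, adjusted p = 0.927), and at 16 weeks its strains overlapped, at 10.98 to 11.93 in A/J and 10.57 to 11.72 in B6. Cox6a2 was lower in A/J at 16 weeks, by -0.30 (SE 0.061, adjusted p = 0.000272), with an A/J median of 12.53 and a B6 median of 12.86 and overlapping ranges.

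A fit of both time points together tested this change of the strain difference. It called 3 of 82 members, all lower at 16 weeks (3.66%, against 1.77% of all 12158 probes tested, 1.02% called higher and 0.748% lower), and these 3 were the muscle isoforms. The A/J minus B6 difference fell by 0.58 for Cox7a1 (SE 0.14, limma adjusted p = 0.019), by 0.32 for Cox6a2 (SE 0.08, adjusted p = 0.0287) and by 0.70 for Cox8b (SE 0.189, adjusted p = 0.043). Their ubiquitous partners were not called: the change was 0.02 and 0.10 for the Cox6a1 probes (adjusted p = 0.955 and 0.396), 0.00 for Cox7a2 (adjusted p = 0.999) and 0.07 for Cox8a (adjusted p = 0.826). Cox4i1 (-0.01, adjusted p = 0.967) and Cox4i2 (0.23, adjusted p = 0.792) were not called either. With the beadchip as a block 5 members were called (4.91% of all probes), with Cox7b (-0.26, adjusted p = 0.0153) and Ndufa12 (-0.18, adjusted p = 0.0286) added. In fits without the block that left out 1 array, the Cox8b call was lost in 28 of 48 (adjusted p 0.0174 to 0.0707). The Cox6a2 call was lost in 1, without B6 GMA-SS replicate 2 of 4 weeks (0.051), when 1 call remained. Cyclic loess and scaling to the median of detected probes each left 1 call.

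Markers of heart muscle moved in the same comparison. The cardiac muscle list averaged 10.93 to 11.29 in A/J and 10.62 to 11.25 in B6 at 4 weeks, and 10.24 to 11.17 and 10.54 to 11.40 at 16 weeks. Of its 17 probes 5 were called for the same fall in the strain difference and 0 for a rise, with a median of -0.445 against 0.01 for all probes. These were Hrc (-0.57, rounded, limma adjusted p = 0.00873), both Actc1 probes (adjusted p = 0.0134 and 0.0467), Csrp3 (adjusted p = 0.0183) and Fabp3 (adjusted p = 0.0433), all expressed in heart muscle. The adipose list, of which 7 of 12 probes passed detection at 4 weeks, averaged 9.63 to 11.01 in A/J and 8.55 to 10.17 in B6 at 4 weeks (8.98 to 9.72 and 8.54 to 9.37 at 16 weeks), with a median change of -0.427 and 0 of 8 called. The skeletal muscle list ranged from 7.81 to 11.97 over the 4 week arrays, with a median change of -1.229 and 0 of 11 called. At 4 weeks the median array in A/J and B6 stood at 11.14 and 11.08 for the cardiac list. For the adipose list it stood at 10.1 and 8.81, and for the skeletal muscle list at 11.14 and 9.36. The array with the highest adipose average at 4 weeks, A/J GMA-SS replicate 2 (11.01), also had the highest Cox8b signal (12.87). The array with the highest cardiac average at 16 weeks, B6 GMA-SS replicate 3 (11.40), had the highest Cox6a2 signal (13.32). Neither pair recurred at the other time. At 16 weeks the highest adipose average (9.72) was in A/J GMA-SS and the highest Cox8b signal (11.93) in A/J sham. At 4 weeks the highest cardiac average (11.29) was in A/J GMA-SS and the highest Cox6a2 signal (13.21) in B6 sham. Macrophage markers were higher in A/J at both times (over the 3 exposures 9 of 10 probes called higher at 4 weeks, against 19.7% of all probes, and 10 of 10 at 16 weeks, against 25.9%). The part of these tissues and cells in the subunit results was not tested.

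**Figure D3:**
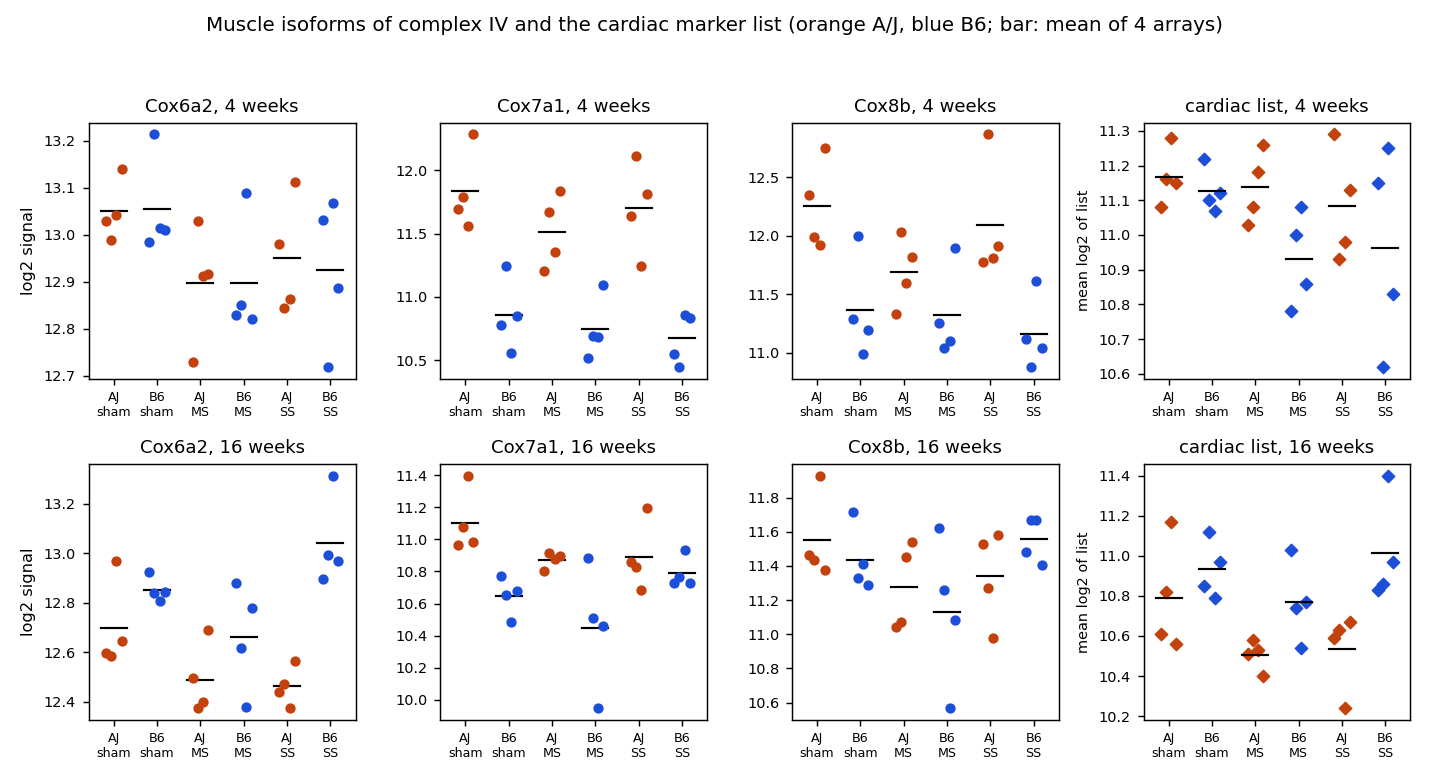
Log2 signal of Cox6a2, Cox7a1 and Cox8b and mean log2 signal of the cardiac marker list (y axes) in every array by group (x axis), A/J in orange and B6 in blue, bars at the mean of 4 arrays, 4 weeks above and 16 weeks below. Cox7a1 and Cox8b sit higher in A/J at 4 weeks, and at 16 weeks Cox8b overlaps between strains and Cox6a2 has A/J and B6 medians of 12.53 and 12.86.

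Neither fume gave a called change in any member. The 8 comparisons of a fume with sham and the 4 of GMA-SS with GMA-MS, within strain and time point, called 0 of 82 members by limma, and so did the 4 tests of whether A/J and B6 responded differently. Few probes of any kind were called: against sham at 4 weeks 0.12% of all probes for GMA-MS and 0.241% for GMA-SS in A/J and 0.0516% and 0.043% in B6, and at 16 weeks 0% and 0.429% in A/J and 0.202% and 0% in B6. Between fumes it was 0% in both strains at 4 weeks and 0.177% (A/J) and 0.101% (B6) at 16 weeks, and the tests of a strain difference in response called 0.0172% (GMA-MS) and 0% (GMA-SS) at 4 weeks and 0.168% and 0.0253% at 16 weeks. At an unadjusted p under 0.05, 0 to 5 of the 82 members passed in each of the 16 comparisons, against 1.9% to 9.61% of all probes. With the beadchip as a block 17 members passed that limit for A/J with GMA-MS at 4 weeks and 1 to 9 in the other comparisons. The share of all probes that passed it with the block was not counted, so these counts have no background beside them. The count of called members was also 0 with the beadchip as a block (0% to 0.791% of all probes), with limma's trend and robust options, and in all of the 320 refits under other settings or without 1 array.

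The sizes of the fume differences were small. For the comparisons of fume with sham the 95% interval reached, at the median member, 0.19 to either side at 4 weeks and 0.15 at 16 weeks, on the log2 scale. In A/J the whole interval lay within 0.5 of zero for 71 members with GMA-MS and 77 with GMA-SS at 4 weeks, and for 78 and 79 at 16 weeks. In B6 it was 74 and 74 at 4 weeks and 76 and 81 at 16 weeks. Changes larger than this limit were thus outside the interval for most members. Changes smaller than a member's own half-width, 0.19 or 0.15 at the median member, could not be told from none. These intervals came from fits without the beadchip block. The medians of the members in A/J at 4 weeks were -0.062 for GMA-MS (-0.007 for all probes, 29.3% of members above 0 against 47.4%) and -0.035 for GMA-SS (-0.017, 22% against 42.7%), which share the sham arrays. In B6 they were -0.006 and -0.003, and at 16 weeks all 4 lay between -0.005 and 0.011.

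The member with the smallest p value varied between the comparisons, and none of them was called. For A/J with GMA-MS at 4 weeks it was Atp5d of the ATP synthase (-0.23, rounded, SE 0.073, limma adjusted p = 0.386), and the largest moves there, not called, were -0.56 for Cox8b and 0.33 for Ndufb4. For A/J with GMA-SS it was Cox6b2, the testis isoform (-0.18, adjusted p = 1), for B6 with GMA-MS Cox6a2 (-0.16, adjusted p = 1) and for B6 with GMA-SS Ndufs5 (-0.21, adjusted p = 1). At 16 weeks it was Ndufc1 (-0.13, adjusted p = 0.473) and Cox6a2 (-0.24, adjusted p = 0.699) in A/J, and Atp5j (0.21, adjusted p = 0.486) and Ndufc1 (0.12, adjusted p = 1) in B6, for GMA-MS and GMA-SS in turn. Between the fumes at 4 weeks it was Ndufs3 in A/J (0.28, adjusted p = 0.782) and Ndufs5 in B6 (-0.21, adjusted p = 1). At 16 weeks it was Ndufb7 in A/J (-0.23, adjusted p = 0.819) and Cox6a2 in B6, where GMA-SS exceeded GMA-MS by 0.38 (SE 0.105, adjusted p = 0.352). That comparison held the array with the highest Cox6a2 signal and the highest cardiac average. For the strain difference in response it was Atp5d (-0.25) and Sdhaf4 (-0.14) at 4 weeks, both at an adjusted p of 1, and Ndufc1 (-0.21, adjusted p = 0.531) and Cox6a2 (-0.43, adjusted p = 0.989) at 16 weeks.

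**Figure D4:**
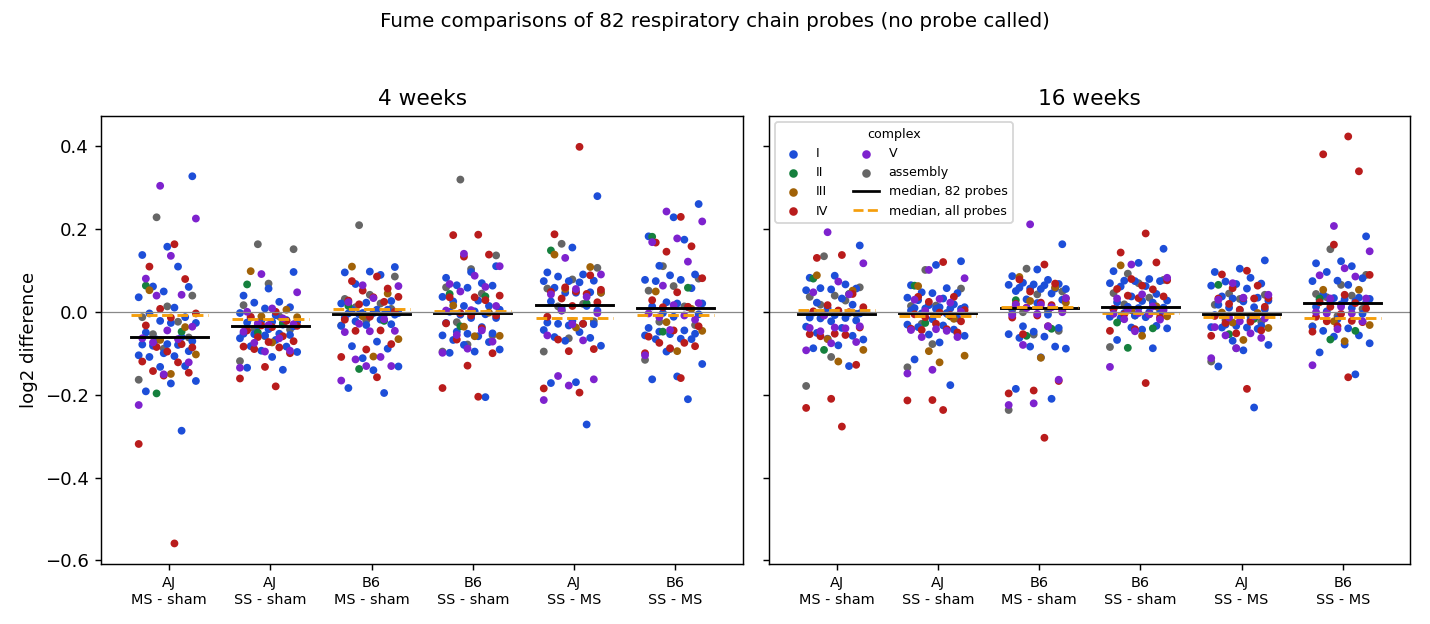
Log2 difference of the 82 probes (y axis; points colored by complex) for each fume against sham and GMA-SS against GMA-MS in each strain (x axis), 4 weeks on the left and 16 weeks on the right, with solid bars at the median of the 82 and dashed bars at that of all probes. No point was called; the lowest is Cox8b at -0.56 and the medians in A/J at 4 weeks are -0.062 and -0.035.

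The beadchip on which an array was run moved more members than the fumes. Each chip held 1 array of every group, so chip and group are not confounded within a time point. Position on the chip was the same for all arrays of a group and is confounded with it. At 4 weeks 49 of 82 members differed between the 4 beadchips (59.8%, limma F test, against 59.2% of all probes), and at 16 weeks 26 did (31.7%, against 23.4%). Both shares were close to or moderately above the background. By complex, 20 of 33 probes of complex I, 2 of 3 of complex II, 3 of 5 of complex III, 11 of 18 of complex IV, 9 of 14 of complex V and 4 of 9 assembly factors were called at 4 weeks, and 11, 1, 1, 3, 6 and 4 at 16 weeks. The complex medians by chip stayed within 0.105 of the mean at 4 weeks; for complex IV they were -0.066, 0.078, -0.098 and 0.078.

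Cox4i2 had the largest chip effect at 4 weeks: its deviations from the mean on chips 1 to 4 were -0.41, 0.47, -0.48 and 0.41 (F = 96, limma adjusted p = 2.23e-09), a range of 0.95 beside its strain difference of -1.23. Every group followed the chips up and down. Ndufb9 (F = 45.6) went the same way, at -0.20, 0.19, -0.32 and 0.34, while Ndufb7 (F = 42.8), at 0.25, -0.29, 0.24 and -0.19, and Ndufaf7 (F = 31.4), at 0.20, -0.21, 0.21 and -0.20, went the opposite way. Ndufa5 (F = 38.2) and Ndufv1, which binds NADH (F = 31.4), completed the 6 largest. At 16 weeks Ndufb4 led, at 0.21, 0.25, -0.55 and 0.09 (F = 121, adjusted p = 8.56e-09): all 6 arrays of chip 3 read 9.11 to 9.49 and all others 9.87 to 10.39. Low signal on chip 3 was shared by Atp5a1, the alpha subunit of the ATP synthase (-0.36, F = 49), Ndufb10 (-0.27, F = 37.4), Ndufa5 (-0.43, F = 31.2) and Ndufb5 (-0.29, F = 31.2). Sdhaf3, an assembly factor of complex II, was also lowest on chip 3 (-0.16, F = 33). Of the 49 and 26 calls 18 were of the same probes, 36.7% of the first and 69.2% of the second list (25.7% and 63.6% over all probes).

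**Figure D5:**
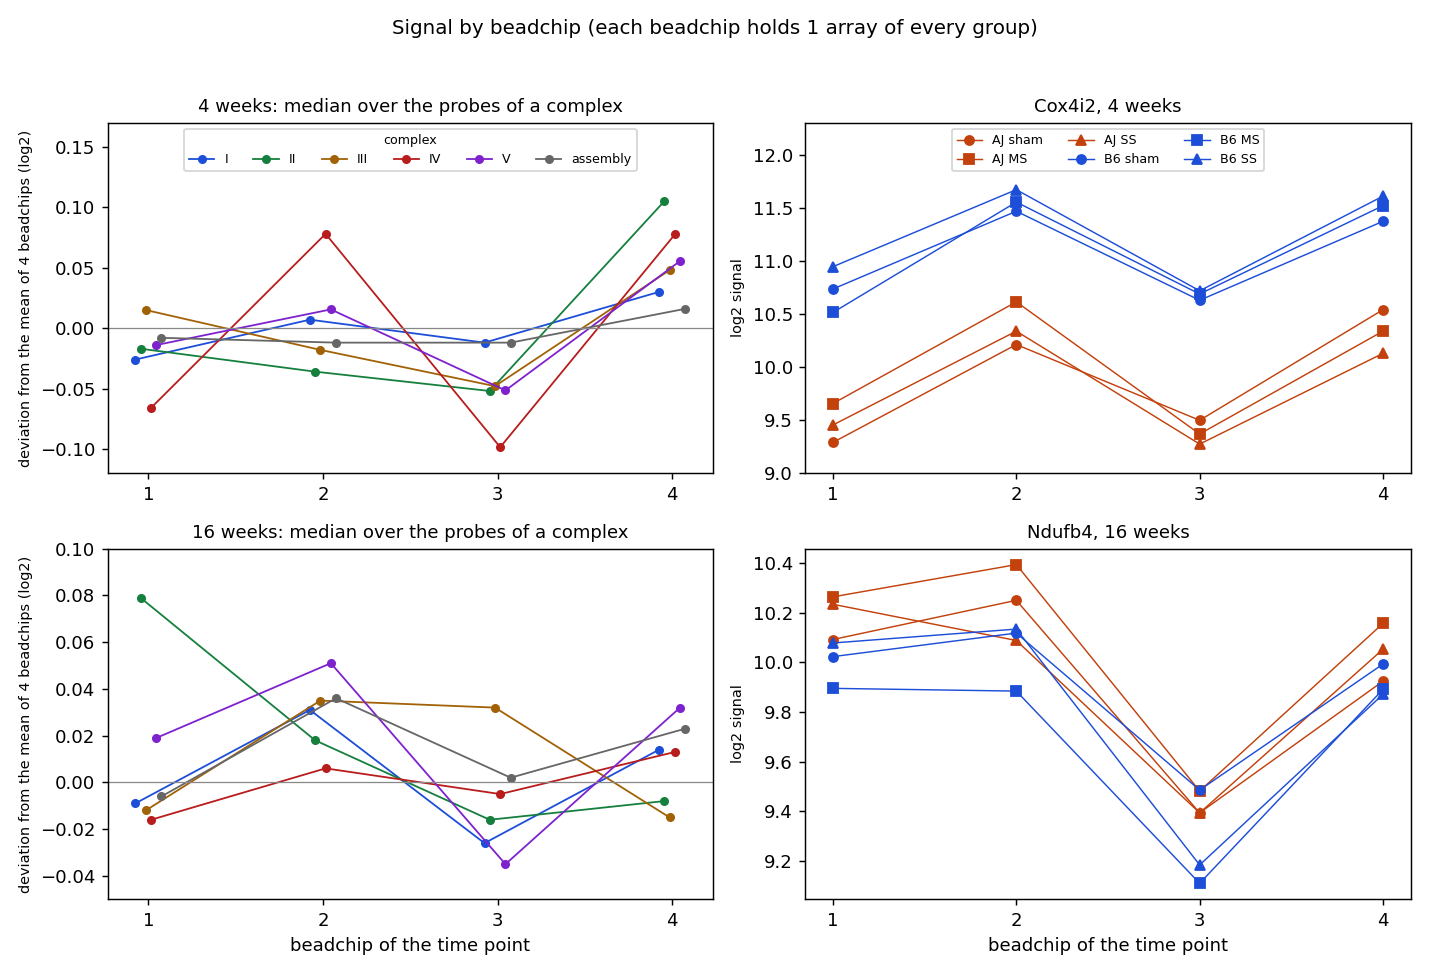
Left, median deviation of each complex from the mean of the 4 beadchips (y axis, log2) by chip (x axis) at 4 weeks (above) and 16 weeks (below); right, log2 signal by chip and group (lines join arrays of a group, A/J in orange, B6 in blue) of Cox4i2 at 4 weeks and Ndufb4 at 16 weeks. Cox4i2 is high on chips 2 and 4 in all 6 groups, and Ndufb4 is low on chip 3, at 9.11 to 9.49.

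Genes that work with the chain were read from lists of the pathway. Over the 3 exposures at 4 weeks, 8 of 15 probes of electron carriers and coenzyme Q synthesis were higher in A/J and 1 lower (median 0.177, against 0.02 for all probes, of which 19.7% were called higher and 17.9% lower). The lower one was Coq2, which attaches the side chain of coenzyme Q, at -2.86, and at -1.96 at 16 weeks. In the list of the tricarboxylic acid cycle, which included pyruvate dehydrogenase, 5 of 15 were higher and 0 lower (median 0.144). Among them were Pdhb of pyruvate dehydrogenase (0.32), Fh1 (0.31), Mdh2 (0.22) and Cs, citrate synthase (0.17). Other assembly factors had 7 of 24 higher and 0 lower, mitochondrial carriers 4 of 12 and 0, and biogenesis regulators 3 of 14 and 0 (Tfb1m 0.29, Gabpa 0.20, Ppargc1b 0.46). The share of regulators lay near that of all probes. The mitochondrial ribosome had 13 of 90 higher and 8 lower (median 0.036), smaller shares in both directions than over all probes, and the cytosolic ribosome 7 of 63 higher and 16 lower (median -0.043). At 16 weeks, when 25.9% of all probes were called higher and 19.2% lower and their median was 0.025, the counts of higher and lower were 7 and 1 of 16 for electron carriers and coenzyme Q (median 0.088), 3 and 2 of 16 for the cycle (0.05), 5 and 2 of 26 for assembly factors (0.01), 2 and 0 of 12 for carriers of the membrane (0.041), 4 and 3 of 14 for regulators (0.034), 18 and 12 of 89 for the mitochondrial ribosome (0.048) and 6 and 21 of 63 for the cytosolic ribosome (-0.035).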

How the data were processed

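Lung RNA of 48 mice was read on 8 beadchips of 1-color Illumina arrays. The authors exported the mean bead intensity and a detection p-value per probe from BeadStudio, and both were deposited. They also deposited log2 values made with lumi (background forced positive, variance stabilizing transformation, robust spline normalization), used here as an alternative. The 4 rows that repeat a probe ID were averaged. The deposited intensity was background corrected (limma normexp with controls inferred from the detection p, offset 16), quantile normalized within each time point, and log2 transformed. Probes with detection p under 0.01 in at least 4 arrays of a time point were tested. limma 3.58.1 (R 4.3.3) fitted 6 group means per time point without a block, and all 12 groups together, normalized together, for changes of the strain difference with time (12158 probes). Levels of the 2 time points come from separate normalizations.

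Symbols came from the platform annotation: 20984 probes had 1 symbol, 1 had several and 3628 had none. The number of arrays limits the precision; each bead type had a median of 34 to 36 beads. The replicate number marks the beadchip, which the study's methods and the labels give. Arrays of a chip deviated together at 4 weeks (mean correlation of deviations from group means 0.242 to 0.403 within chips, -0.108 between) and at 16 weeks (0.049 to 0.203, and -0.041), so the number pairs arrays and the beadchip block was the alternative of most weight. Each array stands for 1 mouse as far as the labels show.

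Named were all called members in the strain comparisons, with arrays for the largest; elsewhere called members or the one with the smallest p, the 6 largest F values for beadchips, tissue isoforms and genes with several probes. Members, lists and rules were chosen with earlier results of these data known. Cell type lists not given in the report had these counts over the 3 exposures (higher and lower in A/J): lung 2 and 3 of 15 at 4 weeks and 7 and 3 of 15 at 16 weeks, ciliated airway 1 and 3 of 11 and 2 and 4 of 10, squamous epithelium 6 and 0 of 11 and 0 and 0 of 11, dividing cells 0 and 1 of 8 and 5 and 1 of 10. The scripts were tested on simulated data.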

Additional observations from a re-analysis of the deposited data

Results flagged for a closer look

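The strain difference of 3 complex IV muscle isoforms differed between time points by a test of the change itself: it went down by 16 weeks, with a change of -0.70 for Cox8b (limma adjusted p = 0.043), -0.58 for Cox7a1 (adjusted p = 0.019) and -0.32 for Cox6a2 (adjusted p = 0.0287). The Cox8b call was lost in most fits that left out 1 array. Cyclic loess and scaling to the median of detected probes each left 1 of these calls.

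Of 156 groups of 4 arrays checked for 13 members, 15 had an array far from the other 3, by a gap that passed Dixon's critical value for 4 values. Chance alone gives about 1 in 20. At 4 weeks these were Sdhc in B6 GMA-MS replicate 2 (12.14, the next array 12.36), Cox6a2 in B6 sham replicate 2 (13.21, next 13.02) and in B6 GMA-MS replicate 3 (13.09, next 12.85), Cox8b in A/J GMA-SS replicate 2 (12.87, next 11.91) and Atp5e in B6 GMA-SS replicate 4 (9.97, next 9.70). At 16 weeks Ndufb10 was low on replicate 3, the third beadchip, in B6 GMA-SS (11.56, next 11.90), A/J GMA-SS (8.30, next 8.64) and A/J GMA-MS (8.23, next 8.64), and Ndufb4 in B6 GMA-MS (9.11, next 9.88). A/J sham replicate 3, also of the third beadchip, stood high for Ndufa12 (12.14, next 12.03), Cox6a2 (12.97, next 12.65) and Cox8b (11.93, next 11.47) and low for Atp5e (8.17, next 8.56). Over all groups that chip was high for Ndufa12 (0.12) and low for Atp5e (-0.30), both called by beadchip. Cox6a2 and Cox8b were not called by beadchip (limma F test, adjusted p = 0.787 and 0.835). The cardiac marker average of A/J sham replicate 3 was 11.17, the highest of the A/J arrays at 16 weeks. The other outlying arrays were Atp5g1 in A/J GMA-MS replicate 3 (12.27, next 12.56), on a chip low for it (-0.115), and Atp5g2 in A/J GMA-SS replicate 1 (10.78, next 10.92).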

How the results depend on the processing

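With the beadchip as a block, the replicate number that pairs the arrays, 31 members were called in sham lungs and 51 over the 3 exposures at 4 weeks in place of 12 and 29, and 5 in place of 3 for the change of the strain difference with time; the block moved no other count by over 1.5 times. Scaling to the median of detected probes in place of quantile normalization gave 14 over the 3 exposures at 4 weeks, 8 in sham lungs at 16 weeks (3 higher and 5 lower in A/J, 17.8% of all probes called), 14 for beadchips at 16 weeks (7.08%) and 1 for the change with time, which cyclic loess also gave. This scaling moved the median sham difference of all probes at 16 weeks from 0.025 to -0.148 and that of the members from 0.057 to -0.017, so the members stayed above all probes. The cause was not tested. The remaining 215 of 223 counts under other settings stayed within 1.5 times, and no named difference changed its direction.

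Fits that left out 1 array at a time had no beadchip block, except those that tested beadchips. They gave 8 to 16 called members in sham lungs and 23 to 32 over the 3 exposures at 4 weeks. At 16 weeks they gave 14 to 17 and 23 to 30. For beadchips they gave 46 to 55 and 23 to 27, and for the change with time 1 to 3. The fewest sham calls at 4 weeks came without B6 replicate 4. Named differences kept their call in 2024 such fits and lost it in 224, and in 1013 and 87 under the other settings. Over the 3 exposures, calls lost in at least 9 of 24 such fits were Cox7b, Atp5k, Sdhd, Ndufaf7, Ndufb4 and Ndufc1 at 4 weeks and Ndufa3, Uqcr11, Ndufb7, Uqcrc1 and Ndufb9 at 16 weeks. Counts of 0 for the fumes did not change. With 4 arrays a group, changes within the intervals given cannot be seen.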
